A study of Homo sapiens with 18 samples.

Results

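The 10 genes described here form a set named glial, mesenchymal and stem markers: GFAP, VIM, NES, CD44, CHI3L1, S100B, SOX9, TNC, S100A4 and S100A2. All are called markers below, though no such role is given here for S100A2. These genes were taken by symbol from the annotation of the array, on which 22 of 22277 probe sets measured them. They are 10 of the 11963 genes that had a probe set of their own. The set and the lists of other genes below were chosen with earlier results of these data known, so counts of calls are descriptive. A probe set is a group of short probes chosen for a stretch of transcript. Some can match more than 1 transcript, and the 1043 that named several genes were left out. The probe set with the highest mean over all 18 arrays stood for its gene. Values below are log2(signal + 3). The main probe sets of 8 of the 10 genes passed a filter on low signal and were tested in 1 fit with 7828 genes. CHI3L1 and S100B, with means of 2.84 and 2.24, fell below the filter at 3.72, and GFAP lay just above it at 3.81.

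The cells were U251, an established human glioblastoma line, so every group is the same line. Cells were left untransfected (Control), transfected with a negative siRNA (siNeg) or transfected with an siRNA against MPS1 (siMPS1), the spindle checkpoint kinase encoded by TTK, with 2 pmol of siRNA. RNA was taken at 6, 24 and 48 h, which gave 9 groups of 2 arrays, each array with 250 ng of labelled total RNA. Nothing in the labels ties the 2 arrays of a group to separate cultures, so p-values measure only the spread between these arrays, which may be technical.

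GFAP, VIM (vimentin) and NES (nestin) encode intermediate filament proteins: GFAP marks astrocytes, nestin neural stem and progenitor cells, and vimentin both immature glia and mesenchymal cells. SOX9 is a transcription factor of glial progenitors. CD44 is a surface receptor for hyaluronan, TNC (tenascin-C) a matrix glycoprotein of the developing brain and of gliomas, and CHI3L1 a secreted chitinase-like protein of reactive astrocytes, and these are widely used as markers of mesenchymal glioblastoma. S100B, S100A4 and S100A2 are small calcium-binding proteins, of which S100B marks astrocytes and S100A4 is known from motile mesenchymal cells.

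The targeted gene was low in the arrays labelled siMPS1. TTK was lower in siMPS1 than in siNeg by a log2 difference of -1.43 at 6 h, -1.88 at 24 h and -2.30 at 48 h (SE 0.21 each). The 2 arrays of each group correlated between 0.933 and 0.948 over all probe sets. The siMPS1 arrays at 48 h stood apart in the control probe sets for transcript ends. Their log2 ratio of 3′ over 5′ signal was 0.87 and 0.92 for ACTB, against 0.10 to 0.43 in the other 16 arrays, and 0.29 and 0.30 for GAPDH, against -0.03 to 0.14. The siMPS1 arrays at 6 h stood apart in the ACTB 3′ control, which read 12.44 and 12.57 there and at most 12.31 in the other arrays. The control probe set for Alu repeats read 12.88 and 13.03 there. Its group mean was 12.96, against 12.41 to 12.77 in the other groups, but siMPS1 replicate 2 at 24 h read 12.93, within that range of arrays. The siNeg arrays stood apart in the control for 18S ribosomal RNA. It read 10.28 and 10.31 in siNeg at 48 h, the lowest of all arrays, and 11.91 and 11.88 in siNeg at 24 h, the highest. In siMPS1 at 48 h it read 11.62 and 11.71, and in the remaining arrays 10.53 to 11.21. Of the defining genes of other cell types, 8 of 14 neuronal, 3 of 11 oligodendrocyte, 1 of 8 endothelial, 4 of 12 immune or blood and 2 of 9 epithelial genes passed the filter. Of all genes with a probe set of their own, 7828 of 11963 passed. Every group was the same line, so these counts describe RNA signal and name no other cell type. Bulk samples of a line cannot tell fewer cells with a transcript from less of it per cell.

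**Figure D1:**
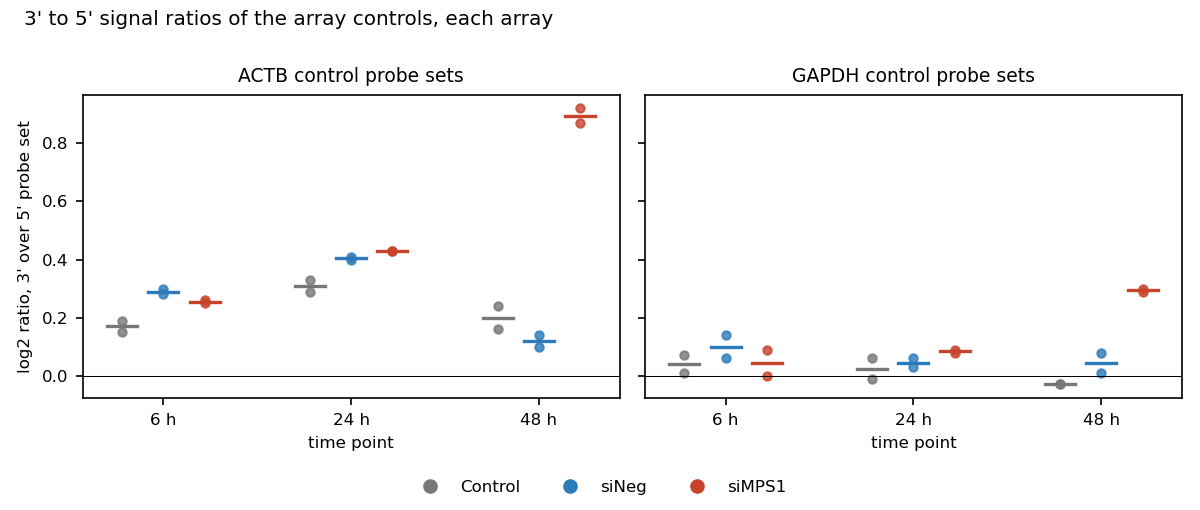
Log2 ratio of 3′ over 5′ signal for the ACTB (left) and GAPDH (right) control probe sets at 3 time points, with 1 point per array and a bar at each group mean. Both siMPS1 arrays at 48 h sit above all others, at 0.87 and 0.92 for ACTB.

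The stretches of 250 bases before the start of S100A2, TNC and S100A4 are printed because these are the 3 markers that were higher in siMPS1 than in siNeg at 48 h. Sequences are from RefSeq on GRCh38.p14, 5′ to 3′ on the gene's strand, with capitals at each TATAA (TATA box core) and GGGCGG (GC box).
S100A2 (chr1:153563888-153564137, minus strand): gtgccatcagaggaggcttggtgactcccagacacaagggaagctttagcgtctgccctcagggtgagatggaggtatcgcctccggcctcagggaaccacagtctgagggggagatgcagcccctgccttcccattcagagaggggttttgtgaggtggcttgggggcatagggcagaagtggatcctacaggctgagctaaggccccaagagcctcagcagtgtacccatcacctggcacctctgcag
TNC (chr9:115118158-115118407, minus strand): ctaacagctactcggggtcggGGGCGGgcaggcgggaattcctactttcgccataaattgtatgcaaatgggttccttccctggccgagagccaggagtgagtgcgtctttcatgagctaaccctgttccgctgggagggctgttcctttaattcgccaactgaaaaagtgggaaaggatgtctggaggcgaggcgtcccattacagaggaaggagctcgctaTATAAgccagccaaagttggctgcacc
S100A4 (chr1:153545807-153546056, minus strand): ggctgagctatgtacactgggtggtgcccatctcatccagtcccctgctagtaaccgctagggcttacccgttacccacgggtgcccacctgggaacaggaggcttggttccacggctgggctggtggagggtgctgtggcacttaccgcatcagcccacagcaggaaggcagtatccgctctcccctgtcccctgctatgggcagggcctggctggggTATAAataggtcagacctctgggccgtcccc
The RefSeq table held such a window for 7 of the 10 genes, and had none for GFAP, S100B and SOX9. In windows from 250 bases before to 50 after the start, searched on both strands, TATAA was found in 4 of the 7 (VIM, CHI3L1, TNC and S100A4) and in 20.4% of 35116 promoters. It began 27 bases before the start of TNC and 31 before that of S100A4. The S100A2 window held neither motif. GGGCGG was found in 4 of the 7 (VIM, NES, CD44 and TNC), against 45% of all promoters. The AP-1 motif TGANTCA was found in none of the 7, and in 7.71% of all promoters. The E-box CACGTG and the CCAAT box were also found in none of the 7, against 7.26% and 34.6% of all promoters. These are matches of letters only.

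At 6 h, 2 of the 8 tested markers were called between siMPS1 and siNeg (adjusted p under 0.05, limma with Benjamini-Hochberg adjustment over 7828 genes), both higher: VIM and S100A2. At 24 h TNC and S100A2 were higher, and at 48 h TNC, S100A4 and S100A2 were higher and NES was lower. The share of all tested genes called in this comparison was 7.7% at 6 h (3.45% higher and 4.25% lower), 10.9% at 24 h (5.14% and 5.81%) and 29.2% at 48 h (15.7% and 13.5%). With each array centred on its median, the split at 6 h of 270 higher and 333 lower genes became 151 and 339 of 490 called genes. The median difference of the 8 markers was 0.04, 0.06 and 0.01 at the 3 times, beside 0.01, 0.00 and 0.03 for all genes. The higher calls were 1.2-fold to 1.63-fold, and NES was at 0.752-fold. Every 48 h value of siMPS1 below comes from the 2 arrays with the high 3′ over 5′ ratios, whose part in these differences was not tested.

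**Figure D2:**
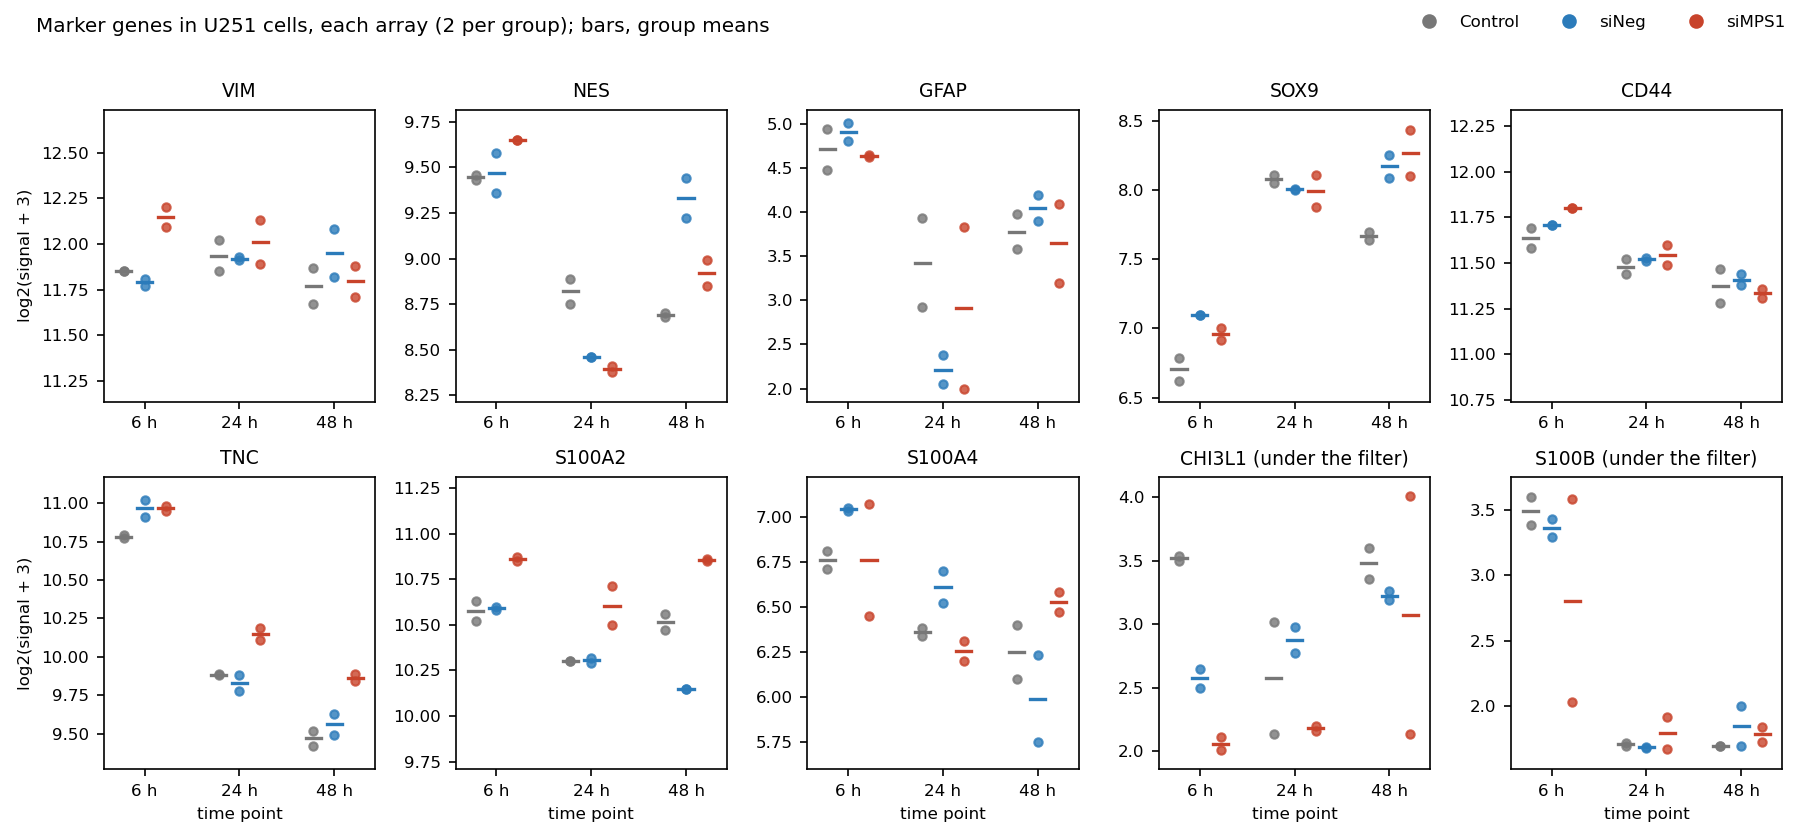
Log2(signal + 3) of the main probe set of each marker at 3 time points, with 1 point per array, 2 arrays per group and a bar at each group mean; each panel has its own vertical range, and no level is comparable between panels. S100A2 in siMPS1 (red) lies above both other groups at 6, 24 and 48 h.

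Of the S100 genes, S100A2 was the marker called in siMPS1 at all 3 times. At 6 h its 2 arrays read 10.63 and 10.52 in Control, 10.58 and 10.60 in siNeg, and 10.85 and 10.87 in siMPS1. At 24 h they read 10.30 and 10.30, 10.29 and 10.32, and 10.50 and 10.71 in the same order. At 48 h they read 10.47 and 10.56, 10.15 and 10.15, and 10.85 and 10.86. Both siMPS1 arrays lay above both arrays of each other group at each time, and at 48 h siNeg also lay below Control.

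S100A2 was therefore higher in siMPS1 than in siNeg by 0.27 ± 0.06 (SE, n = 2 against 2) at 6 h (adjusted p = 0.0186), 0.30 ± 0.06 at 24 h (0.0051) and 0.70 ± 0.06 at 48 h (2.52e-07), the last a 1.63-fold difference. Against Control the same arrays were higher by 0.28, 0.30 and 0.34 (adjusted p = 0.0069, 0.00423 and 0.000718), so at 48 h the 2 comparisons give different sizes. They share the siMPS1 arrays. siNeg itself was below Control at 48 h (log2 difference -0.36, adjusted p = 0.000947). Leaving out any 1 of the 4 arrays compared ended the S100A2 call against siNeg at 6 h (0.26 to 0.28, adjusted p = 0.0546 to 0.114), as did quantile normalization (0.15, adjusted p = 0.107) and a fit with no variance trend (adjusted p = 0.0771). At 24 h it ended without siNeg replicate 1 (0.28, adjusted p = 0.0572) or siMPS1 replicate 2 (0.20, adjusted p = 0.0933). Against Control it ended at 6 h without Control replicate 2 (0.23, adjusted p = 0.087), siMPS1 replicate 2 (0.27, adjusted p = 0.0534) or with median centring (0.09, adjusted p = 0.286), and at 24 h without siMPS1 replicate 2 (0.20, adjusted p = 0.0729).

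S100A4 changed sides between the early and the late arrays. At 6 h it read 6.81 and 6.71 in Control, 7.05 and 7.03 in siNeg, and 7.07 and 6.45 in siMPS1. At 24 h the values were 6.38 and 6.34, 6.70 and 6.52, and 6.20 and 6.31, and at 48 h they were 6.10 and 6.40, 6.23 and 5.75, and 6.47 and 6.58. siMPS1 was below siNeg at 24 h and above both other groups at 48 h, with wide spread between the 2 arrays of several groups. The difference from siNeg was -0.28 ± 0.17 (SE) at 6 h and -0.36 ± 0.17 at 24 h, neither called (adjusted p = 0.36 and 0.21), and 0.53 ± 0.17 at 48 h (adjusted p = 0.0272). Against Control it was 0.28 at 48 h and was not called (adjusted p = 0.26). The S100A4 call at 48 h ended without siNeg replicate 2 (0.30, adjusted p = 0.311), siMPS1 replicate 1 (0.58, adjusted p = 0.0662) or siMPS1 replicate 2 (0.48, adjusted p = 0.131), and with no variance trend (adjusted p = 0.0613).

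S100B, the astrocyte member of the family, was below the filter. It read 3.60 and 3.38 in Control, 3.43 and 3.29 in siNeg, and 2.03 and 3.58 in siMPS1 at 6 h, and from 1.67 to 2.00 in all 12 arrays at 24 and 48 h. With no filter, the fall in Control from 6 to 24 h was -1.78 ± 0.38 (SE, adjusted p = 0.00213), and no siMPS1 comparison was called. The Control arrays at 24 h had deposited log2 values of -1.95 and -1.73, at the floor of the signal. The added 3 (the pseudocount) narrows both differences and spread there. Neither the size nor the adjusted p of this fall supports anything further.

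Of the intermediate filament genes, NES had its clearest difference at 48 h, where siNeg stood above both other groups. At 6 h NES read 9.46 and 9.43 in Control, 9.36 and 9.58 in siNeg, and 9.65 and 9.65 in siMPS1. At 24 h it read 8.75 and 8.89, 8.46 and 8.46, and 8.38 and 8.41, and at 48 h it read 8.68 and 8.70, 9.44 and 9.22, and 8.85 and 8.99. At 48 h siMPS1 lay between the 2 control groups without overlapping either. NES in siMPS1 was thus lower than in siNeg (log2 difference -0.41 ± 0.08, SE, adjusted p = 0.000961) and higher than in Control by 0.23 ± 0.08 (adjusted p = 0.0445), while siNeg exceeded Control by 0.64 ± 0.08 (adjusted p = 5.91e-05). These 3 values share their arrays in pairs.

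At 24 h NES was lower in both transfected groups than in Control, with log2 differences of -0.36 in siNeg (adjusted p = 0.0471) and -0.42 in siMPS1 (adjusted p = 0.00242), and siMPS1 and siNeg differed by -0.06 ± 0.08 with an interval from -0.23 to 0.11. Between siNeg and Control, 3.82% of all genes were called at 6 h, 0.933% at 24 h and 12.9% at 48 h. Between siMPS1 and Control the shares were 16.6%, 12.7% and 27.5%. Median centring moved the splits of higher and lower genes, from 222 and 77 to 1022 lower of 1155 called for siNeg against Control at 6 h and from 36 and 37 to 116 and 18 at 24 h. For siMPS1 against Control they moved from 727 and 570 to 227 and 2036 at 6 h, from 430 and 563 to 765 higher of 1116 called at 24 h, and from 1195 and 958 to 863 and 1109 at 48 h. Of the 8 markers, 1, 1 and 3 were called between siNeg and Control at the 3 times, and 2, 3 and 4 between siMPS1 and Control. The NES call of siNeg at 24 h ended without any 1 of 10 arrays, among them Control replicate 2 of that time (-0.29, adjusted p = 0.331), and with median centring (adjusted p = 0.0593), no filter (adjusted p = 0.0712) or no variance trend (adjusted p = 0.14). That of siMPS1 against Control at 48 h ended without any 1 of 9 arrays, among them siMPS1 replicate 2 of that time (0.16, adjusted p = 0.295), and with quantile normalization (adjusted p = 0.0539), median centring (adjusted p = 0.0934), no filter (adjusted p = 0.0688), no variance trend (adjusted p = 0.1) or the compared groups alone (adjusted p = 0.0616).

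VIM was called at 6 h. It read 11.85 and 11.85 in Control, 11.81 and 11.77 in siNeg, and 12.09 and 12.20 in siMPS1, so both siMPS1 arrays were above the other 4. At 24 h the values were 11.85 and 12.02, 11.91 and 11.93, and 11.89 and 12.13, and at 48 h they were 11.67 and 11.87, 12.08 and 11.82, and 11.71 and 11.88. The groups overlapped at both later times. VIM was higher in siMPS1 than in siNeg by 0.35 ± 0.09 (SE, adjusted p = 0.0308) and than in Control by 0.30 ± 0.09 (adjusted p = 0.0412) at 6 h, and the difference from siNeg was 0.09 at 24 h and -0.15 at 48 h, neither called. Under quantile normalization the difference from siNeg at 6 h was 0.03 (adjusted p = 0.692), and the VIM call ended without any 1 of the 4 arrays compared (0.29 to 0.41, adjusted p = 0.0522 to 0.211). Against Control it ended without any 1 of 8 arrays, among them siMPS1 replicate 2 of that time (0.24, adjusted p = 0.235), and with median centring (0.10, adjusted p = 0.379). Quantile normalization left 0.03 against Control too (adjusted p = 0.63), and both VIM calls ended with no filter (adjusted p = 0.0701 and 0.086) and no variance trend (adjusted p = 0.112 and 0.108). The same siMPS1 arrays had the high ACTB 3′ and Alu signals given above, whose part in the VIM difference was not tested.

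GFAP, the astrocyte filament, gave a weak signal with wide spread. Its main probe set read 4.94 and 4.48 in Control, 4.80 and 5.01 in siNeg, and 4.65 and 4.62 in siMPS1 at 6 h. At 24 h it read 2.92 and 3.93, 2.05 and 2.38, and 3.83 and 2.00, and at 48 h 3.58 and 3.98, 4.19 and 3.90, and 4.09 and 3.20. All 6 arrays at 6 h lay above all 12 later ones, and the treatments overlapped, except that siMPS1 lay just below siNeg at 6 h and siNeg below Control at 24 h. The difference between siMPS1 and siNeg was -0.27, 0.70 and -0.40 at the 3 times (SE 0.49, adjusted p = 0.79, 0.414 and 0.593). The 95% interval at 48 h ran from -1.43 to 0.63, so these arrays left the direction for GFAP unresolved. Without siMPS1 replicate 2 of 24 h, the change of the GFAP difference from 24 to 48 h was called (-2.02, adjusted p = 0.0358, against -1.10 and 0.319 with all arrays). The second GFAP probe set stayed between 1.86 and 3.11.

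SOX9, the glial progenitor transcription factor, was called between both transfected groups and Control at 48 h and between siNeg and Control at 6 h, and at no time between siMPS1 and siNeg. It read 6.62 and 6.79 in Control, 7.10 and 7.10 in siNeg, and 7.0 and 6.92 in siMPS1 at 6 h. At 24 h it read 8.11 and 8.05, 8.0 and 8.01, and 8.11 and 7.88, and at 48 h it read 7.64 and 7.70, 8.09 and 8.25, and 8.43 and 8.10. Both transfected groups were above Control at 6 and 48 h. siNeg was higher than Control by 0.40 ± 0.10 (SE, adjusted p = 0.0416) at 6 h and by 0.50 ± 0.10 (adjusted p = 0.00373) at 48 h, and siMPS1 was higher than Control by 0.60 ± 0.10 (adjusted p = 0.000386) at 48 h. The difference between siMPS1 and siNeg was -0.14, -0.01 and 0.10, and its 95% intervals lay within -0.36 and 0.32. The SOX9 call of siNeg at 6 h ended without any 1 of 10 arrays, among them Control replicate 1 of that time (0.31, adjusted p = 0.279), and with median centring (0.25, adjusted p = 0.18). It also ended with quantile normalization (adjusted p = 0.065), no filter (adjusted p = 0.0641), averaged probe sets (0.30, adjusted p = 0.0903), no variance trend (adjusted p = 0.0971) and the compared groups alone (adjusted p = 0.0507). With averaged probe sets the 48 h difference of siMPS1 from Control was 0.38 (adjusted p = 0.00718).

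The second SOX9 probe set, 202936_s_at, read 7.76 and 7.16 in Control, 7.83 and 8.03 in siNeg, and 7.63 and 7.63 in siMPS1 at 48 h. It was also higher in siNeg than in Control (0.47, adjusted p = 0.0316) with all arrays, while its difference between siMPS1 and siNeg was -0.30 ± 0.14 (SE, adjusted p = 0.116), opposite in sign to the 0.10 of the main probe set. The SOX9 call of siNeg in this probe set ended without Control replicate 2 (0.17, adjusted p = 0.459), siNeg replicate 1 (0.57, adjusted p = 0.0566) or siNeg replicate 2 (0.37, adjusted p = 0.184), with median centring (adjusted p = 0.0646) and with no variance trend (adjusted p = 0.0848), and was 0.77 without Control replicate 1. Neither difference between siMPS1 and siNeg was called, but that of the second probe set was called without Control replicate 1 (adjusted p = 0.0253) or replicate 2 (adjusted p = 0.0246) of 48 h. Against Control this SOX9 probe set differed by 0.17 in siMPS1 at 48 h (adjusted p = 0.393), and was called without Control replicate 1 (0.47, adjusted p = 0.00873).

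TNC, the matrix glycoprotein, was called higher in siMPS1 than in both other groups at 24 and 48 h, by its main probe set, 201645_at, which was also lower at later times in every group. It read 10.77 and 10.79 in Control, 11.02 and 10.91 in siNeg, and 10.95 and 10.98 in siMPS1 at 6 h. At 24 h it read 9.88 and 9.89, 9.88 and 9.78, and 10.11 and 10.19, and at 48 h it read 9.42 and 9.52, 9.63 and 9.49, and 9.84 and 9.89. At 24 and 48 h both siMPS1 arrays were above the 4 arrays of the other groups. TNC was higher in siMPS1 than in siNeg by 0.32 ± 0.06 (SE, adjusted p = 0.00334) at 24 h and 0.30 ± 0.06 (adjusted p = 0.00152) at 48 h, and than in Control by 0.27 (adjusted p = 0.0103) and 0.40 (adjusted p = 0.000195). At 6 h the difference from siNeg was 0.00 with an interval from -0.14 to 0.13. The TNC call against siNeg at 24 h ended without siNeg replicate 2 (0.27, adjusted p = 0.0564), and that against Control without Control replicate 1 (0.26, adjusted p = 0.0627), Control replicate 2 (0.27, adjusted p = 0.0603) or siMPS1 replicate 2 (0.23, adjusted p = 0.0876). With both TNC probe sets averaged, the 24 h differences were 0.18 (adjusted p = 0.199) and 0.14 (adjusted p = 0.311).

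The second TNC probe set, 216005_at, behaved otherwise at 6 h. It read 4.85 and 4.87 in Control, 6.54 and 6.43 in siNeg, and 6.24 and 6.29 in siMPS1, so all 4 transfected arrays were far above Control. The differences from Control were 1.63 ± 0.18 (SE, adjusted p = 6.92e-05) in siNeg and 1.40 ± 0.18 (adjusted p = 0.000128) in siMPS1, 3.08-fold and 2.65-fold, whereas the main TNC probe set differed by 0.19 in both. In Control this probe set read 5.25 and 5.56 at 24 h and 4.62 and 4.57 at 48 h, above and then below its level at 6 h. In a fit of all 11824 probe sets past the filter, 3.04% were called higher in siNeg and 8.69% in siMPS1 at 6 h. The CD44 probe set 217523_at did the same: it read 6.77 and 6.75 in Control, 7.68 and 7.81 in siNeg, and 7.64 and 7.35 in siMPS1 at 6 h, which were differences of 0.99 (adjusted p = 0.00489) and 0.73 (adjusted p = 0.0127). The CD44 call of siNeg ended without siNeg replicate 2 (0.92, adjusted p = 0.0638), and that of siMPS1 without Control replicate 1 (0.75, adjusted p = 0.0588), Control replicate 2 (0.72, adjusted p = 0.0712) or siMPS1 replicate 1 (0.59, adjusted p = 0.0953). At 48 h these 2 probe sets were not above Control in siNeg (-0.08 and -0.35, neither called).

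CD44, the hyaluronan receptor, had 8 probe sets, and they gave different answers at 48 h. The main one, 212063_at, read 11.28 and 11.47 in Control, 11.38 and 11.44 in siNeg, and 11.31 and 11.36 in siMPS1, so siMPS1 overlapped Control and lay just under siNeg. Probe set 210916_s_at read 9.13 and 9.23 in Control, 9.36 and 9.25 in siNeg, and 7.88 and 8.06 in siMPS1. Probe set 204490_s_at read 9.80 and 9.81, 9.91 and 9.81, and 9.12 and 9.27 in the same order. For both of these the siMPS1 arrays lay well below the other 4.

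The difference between siMPS1 and siNeg at 48 h was -1.34 ± 0.07 (SE, adjusted p = 4.05e-10) for CD44 probe set 210916_s_at, a 0.395-fold level, and -0.67 ± 0.07 (adjusted p = 2.01e-06) for 204490_s_at. Of all probe sets past the filter, 14.2% were called lower in this comparison. For the other 6 CD44 probe sets it was between -0.28 and 0.08 and was not called: -0.07 for the main probe set, with an interval from -0.21 to 0.07, -0.11 for 204489_s_at, -0.24 for 209835_x_at, -0.04 for 212014_x_at, -0.28 for 217523_at and 0.08 for 216056_at. Against Control at 48 h the same 2 were lower, at -1.21 (adjusted p = 2.2e-09) and -0.61 (adjusted p = 8.81e-06), and 209835_x_at (-0.35, adjusted p = 0.0128) and 217523_at (-0.64, adjusted p = 0.0149) were also called lower, where 13.6% of all probe sets were. The calls of 210916_s_at and 204490_s_at were kept in both comparisons without any 1 array, while 209835_x_at against Control was not called without Control replicate 1 (-0.34, adjusted p = 0.0587), Control replicate 2 (-0.35, adjusted p = 0.0574) or siMPS1 replicate 1 (-0.27, adjusted p = 0.12). CD44 217523_at against Control was not called without Control replicate 1 (-0.45, adjusted p = 0.16) or siMPS1 replicate 2 (-0.35, adjusted p = 0.235), and 209835_x_at against siNeg was called without siNeg replicate 2 (-0.35, adjusted p = 0.0314) or without siMPS1 replicate 1 or 2 of 24 h (-0.24, adjusted p = 0.035 each). Without siMPS1 replicate 1, CD44 217523_at was called against siNeg (-0.57, adjusted p = 0.0441), and without siMPS1 replicate 2, 216056_at was called against Control (-1.21, adjusted p = 0.0424, where all arrays gave -0.79).

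**Figure D3:**
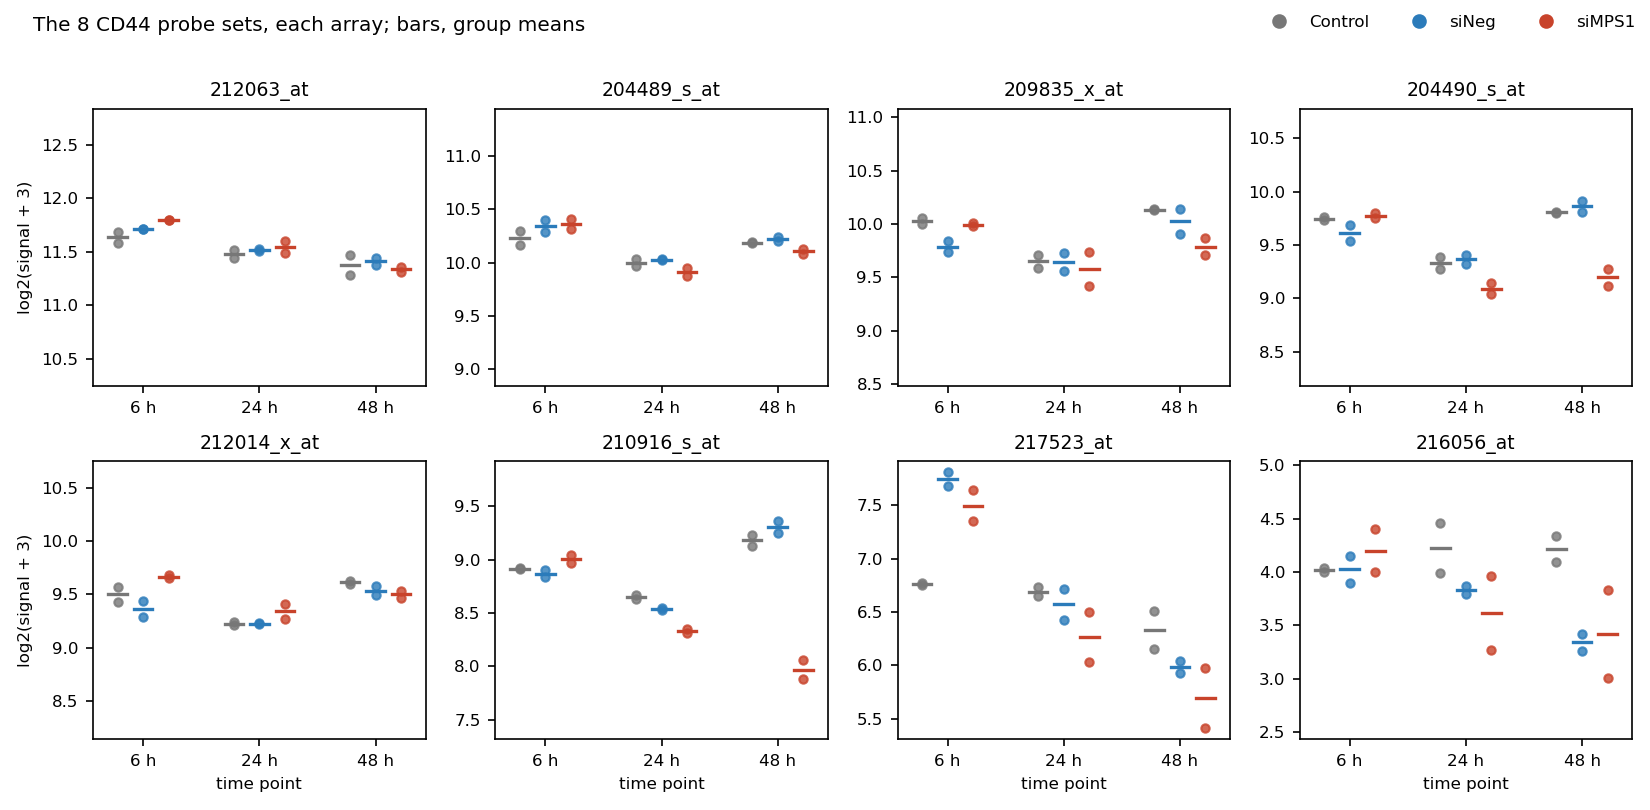
Log2(signal + 3) of the 8 CD44 probe sets at 3 time points, with 1 point per array and a bar at each group mean; every panel spans the same height, with its own centre. At 48 h siMPS1 (red) is lower in 210916_s_at, at 7.88 and 8.06, and in 204490_s_at, at 9.12 and 9.27.

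At 24 h the differences of these 2 CD44 probe sets were smaller, and one of them was called against siNeg. Probe set 204490_s_at differed from siNeg by -0.28 ± 0.07 (SE, adjusted p = 0.0203), and 210916_s_at by -0.21 ± 0.07 (adjusted p = 0.0634) from siNeg and -0.32 ± 0.07 (adjusted p = 0.00609) from Control. From 24 to 48 h the difference from siNeg of 210916_s_at grew by -1.13 ± 0.10 (adjusted p = 9.14e-07). At 24 h the CD44 call of 204490_s_at against siNeg ended without siNeg replicate 1 (-0.23, adjusted p = 0.174) or siMPS1 replicate 1 (-0.23, adjusted p = 0.116) and with no variance trend (adjusted p = 0.0756). That of 210916_s_at against Control ended without Control replicate 1 (-0.30, adjusted p = 0.0541), and its difference from siNeg was called without siMPS1 replicate 1 or 2 of 48 h (adjusted p = 0.0445 and 0.0448). Which part of the CD44 transcript each probe set matches, and whether any also matches other transcripts, was not analysed here. The same siMPS1 arrays at 48 h had the high 3′ over 5′ ratios given above, and the part of that in the split between CD44 probe sets was not tested. With the CD44 probe sets averaged, the difference from siNeg at 48 h was -0.33 (adjusted p = 0.00057), where the main probe set gave -0.07.

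The main CD44 probe set was called in no comparison of treatments: its differences between siMPS1 and siNeg were 0.09, 0.02 and -0.07 (SE 0.07, adjusted p = 0.476, 0.88 and 0.467). At 6 h it read 11.58 and 11.69 in Control, 11.71 and 11.71 in siNeg, and 11.80 and 11.80 in siMPS1, 3 groups in rising order without overlap, and with quantile normalization the CD44 difference between siMPS1 and siNeg was instead -0.21 (adjusted p = 0.0407). CHI3L1, the secreted marker below the filter, read 3.54 and 3.50 in Control, 2.50 and 2.65 in siNeg, and 2.01 and 2.11 in siMPS1 at 6 h, and its 2 siMPS1 arrays at 48 h were far apart at 2.14 and 4.01. With no filter the CHI3L1 difference between siMPS1 and Control at 6 h was -1.46 ± 0.47 (SE) and was not called (adjusted p = 0.0643).

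**Figure D4:**
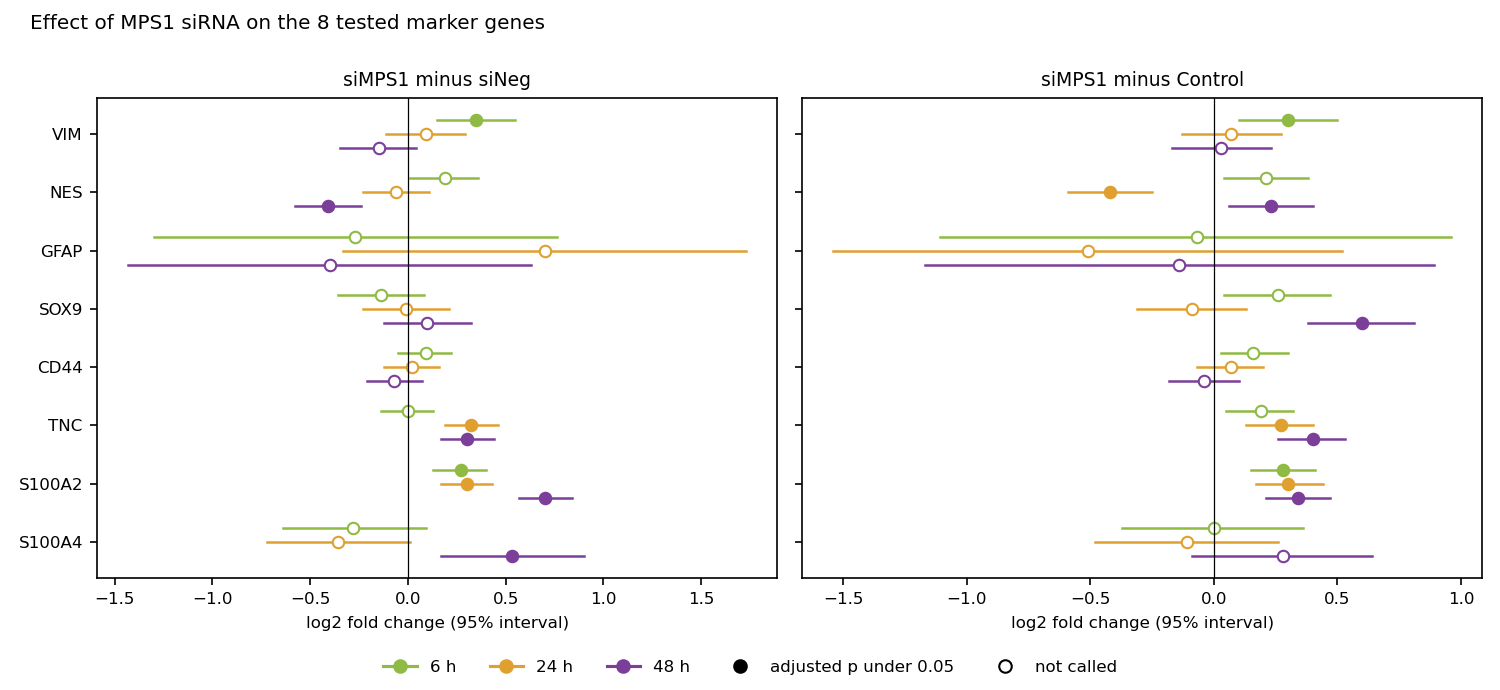
Log2 difference of siMPS1 from siNeg (left) and from Control (right) for the 8 tested markers at 6, 24 and 48 h, with 95% intervals; filled points have an adjusted p under 0.05. At 48 h NES is -0.41 against siNeg and 0.23 against Control, while TNC and S100A2 are above 0 in both panels.

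In untransfected cells limma called 5 of the 8 markers from 6 to 24 h, where 43.1% of all genes were called (2125 higher and 1247 lower, or 1296 and 1937 with median centring). SOX9 rose by 1.38 ± 0.10 (SE, adjusted p = 6.31e-09), 2.6-fold. The main probe set of TNC fell by 0.89 ± 0.06 (adjusted p = 3.21e-09), NES fell by 0.63 ± 0.08 (adjusted p = 6.43e-06) and S100A2 fell by 0.27 ± 0.06 (adjusted p = 0.00185). The second TNC probe set, 216005_at, went the other way and rose by 0.55 ± 0.18 (adjusted p = 0.0195), and with both averaged the TNC change was -0.17 and was not called (adjusted p = 0.11). That rise of 216005_at ended without Control replicate 2 of 24 h (0.40, adjusted p = 0.182), Control replicate 1 (0.54, adjusted p = 0.0766) or 2 (0.56, adjusted p = 0.0667) of 6 h, with quantile normalization (0.39, adjusted p = 0.0837) and with median centring (0.38, adjusted p = 0.0958). The S100A2 change was -0.44 with median centring.

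The fifth call was GFAP (-1.28 ± 0.49, SE, adjusted p = 0.0422), which supports nothing further: GFAP passed the filter at 3.72 through its 6 h arrays (group means of 4.63 to 4.90), and its Control mean at 24 h, 3.43, lay below it. With no filter it was not called (adjusted p = 0.0765), nor with the pseudocount at the 5th percentile (-1.49, adjusted p = 0.0739) or no variance trend (adjusted p = 0.0636), and the pseudocount at the 40th percentile gave -0.85. The GFAP call also ended without Control replicate 1 of 24 h (-0.78, adjusted p = 0.321), without Control replicate 1 (-1.06, adjusted p = 0.206) or 2 (-1.51, adjusted p = 0.0676) of 6 h, and without siNeg replicate 1 or 2 of 6 h (adjusted p = 0.0521 and 0.0523).

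From 24 to 48 h, where 19.6% of genes were called (626 higher and 907 lower, or 1421 and 396 with median centring), TNC fell by 0.42 (adjusted p = 0.000224) and SOX9 fell by 0.41 (adjusted p = 0.00925), and S100A2 rose by 0.21 (adjusted p = 0.0235). The second TNC probe set, 216005_at, fell by 0.81 (adjusted p = 0.00396), and was not called without Control replicate 2 of 24 h (-0.66, adjusted p = 0.0637). Median centring gave -0.27 for TNC (adjusted p = 0.00425), and it ended the SOX9 call (-0.27, adjusted p = 0.12), as did averaged probe sets (-0.24, adjusted p = 0.0922); the second SOX9 probe set averaged 7.52 at 24 h and 7.46 at 48 h, and its change was called without Control replicate 1 of 48 h (-0.37, adjusted p = 0.0491). The SOX9 call also ended without replicate 1 of Control at 24 h (-0.38, adjusted p = 0.0644) or at 48 h (-0.38, adjusted p = 0.0656). The S100A2 call ended without Control replicate 1 (0.22, adjusted p = 0.0913) or 2 (0.21, adjusted p = 0.106) of 24 h or replicate 2 of 48 h (0.17, adjusted p = 0.157). It ended too with quantile normalization (0.15, adjusted p = 0.0711), no variance trend (adjusted p = 0.0698) and the compared groups alone (adjusted p = 0.0546), and was 0.36 with median centring.

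Ordered by group mean, SOX9 ran from 6.70 in Control at 6 h to 8.27 in siMPS1 at 48 h, with the 3 groups of 6 h lowest and not overlapping each other. TNC ran from 10.97 in siNeg and siMPS1 at 6 h, which overlapped, down to 9.47 in Control at 48 h. NES ran from 9.65 in siMPS1 at 6 h to 8.40 in siMPS1 at 24 h, with siNeg at 48 h in the fourth place at 9.33. S100A2 had siMPS1 in the 3 highest places (10.86 at 6 h, 10.85 at 48 h and 10.60 at 24 h), the third overlapping siNeg at 6 h, and siNeg at 48 h in the lowest at 10.15. The VIM group means spanned 0.38 and most neighbours in that order overlapped.

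The difference between siMPS1 and siNeg itself changed with time for some markers. From 6 to 24 h limma called the change of 0 of 8 markers (3.68% of all genes), while 2 had an unadjusted p under 0.05, TNC (adjusted p = 0.056) and NES (adjusted p = 0.254). The TNC change of 0.32 was called without siNeg replicate 1 or 2 of 48 h (adjusted p = 0.0413 each). From 24 to 48 h it changed for 3 of 8 markers (15.8% of all genes): S100A4, S100A2 and NES. From 6 to 48 h it changed for 5 of 8 (20.2% of all genes): VIM, NES, TNC, S100A4 and S100A2. The differences at the 2 times rest on separate arrays.

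Other genes of the same cell types and pathways were counted from lists that leave the 10 markers out, with the test of the whole array. That test called 7.7% of all genes at 6 h, 10.9% at 24 h and 29.2% at 48 h. The counts of every list below stand beside these shares and are not read as a result about a list. Of 18 tested astrocyte and radial glia genes, 0 were higher and 1 lower in siMPS1 than in siNeg at 6 h, 4 and 1 at 24 h, and 4 and 3 at 48 h, and the median differences were 0.07, 0.05 and 0.21, beside 0.01, 0.00 and 0.03 for all genes. GJA1, the astrocyte gap junction protein, was lower at 6 h (-0.42), 24 h (-0.24) and 48 h (-0.18). DIO2, which activates thyroid hormone, was higher at 24 h (0.52) and 48 h (1.53, adjusted p = 7.07e-10, or 0.82 with averaged probe sets), and PTPRZ1, a receptor phosphatase that binds tenascins, at 24 h (0.78) and 48 h (0.95). At 48 h FABP7, the radial glia fatty acid binding protein, was lower (-0.76) and CLU, clusterin, higher (0.45, or 0.98 with averaged probe sets), as CLU was at 24 h (0.25).

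Of 36 tested mesenchymal glioblastoma genes, 5 were higher and 1 lower at 6 h, 5 and 3 at 24 h, and 8 and 2 at 48 h, with medians of 0.07, -0.06 and 0.04. The 3 with the smallest p at 6 h were TGFBI (0.35, or 0.12 and not called with quantile normalization), TAGLN2 (0.27, or 0.17) and TIMP1 (0.27), and TGFBI (0.27, or 0.18 with quantile normalization) and TAGLN2 (0.30) were also higher at 24 h. At 24 h they were PLAUR, the urokinase receptor (0.46, or 0.25 with averaged probe sets), LGALS3, galectin-3 (-0.40), and MVP, the major vault protein (-0.74). At 48 h they were CEBPB, a transcription factor (0.55), PLAU, urokinase (-0.30, or -0.47 with averaged probe sets), and EMP1 (0.35, or 0.19 and not called). PLAU had been higher at 24 h (0.35, and 0.32 against Control). Against Control the 48 h values were 0.10, 0.12 and 0.08, none called. Of 23 tested epithelial-mesenchymal transition genes, 0 were higher and 1 lower at 6 h, 5 and 2 at 24 h, and 6 and 3 at 48 h, with medians of -0.09, 0.08 and -0.01. CDH11, a mesenchymal cadherin, was lower at 6 h (-0.39, or -0.30 and not called with averaged probe sets), 24 h (-0.67, or -0.41 and called) and 48 h (-1.20, and -0.99 against Control). TGFBR2, a TGF-beta receptor, was higher at 24 h (0.68) and 48 h (0.54), and COL5A1 was higher at 24 h (0.68). FBN1, fibrillin, was higher at 24 h (0.58) and 48 h (0.53), and SNAI2, a transcriptional repressor, at 24 h (0.35, or 0.23 and not called without siMPS1 replicate 1) and 48 h (0.64).

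Of 23 tested neural and glioma stem cell genes, 0 were higher and 1 lower at 6 h, 3 and 1 at 24 h, and 8 and 6 at 48 h, with medians of 0.00, 0.10 and 0.04. ITGA6, an integrin, was lower at 6 h (-0.73, or -0.34 with averaged probe sets) and higher at 48 h (0.57, and 0.56 against Control). The ITGA6 value at 48 h was 0.34 without siNeg replicate 1 and 0.27 without siMPS1 replicate 1, neither called, and 0.87 without siMPS1 replicate 2. ALDH1A3 (0.52) and SOX4 (0.28, or 0.35 and not called with averaged probe sets) were higher and ID3 lower (-0.21) at 24 h, and SOX4 was also higher at 48 h (0.37). At 48 h HEY1, a target of Notch (1.21), and NOTCH2 (0.59) were higher and ID3 lower (-0.37). Against Control at 48 h HEY1 was higher by 0.66 (adjusted p = 6.65e-05), and NOTCH2 differed by 0.14 (adjusted p = 0.165).

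Of 10 tested intermediate filament genes and partners, 3 were higher and 0 lower at 6 h, 2 and 2 at 24 h, and 2 and 2 at 48 h, with medians of 0.08, 0.02 and 0.11. At 6 h these were LMNA, lamin A/C (0.33), PLEC, plectin (0.67, or 0.29 and not called with averaged probe sets), and KRT18 (0.24, or 0.15 and not called without siMPS1 replicate 2). PLEC was lower at 24 h (-0.55, and -0.62 against Control). At 24 h LMNB2 (0.44) and KRT18 (0.24) were higher and KRT8 lower (-0.32). LMNB2 was on the other side at 48 h (-0.30, adjusted p = 0.0491). At 48 h SYNM, synemin, which pairs with vimentin and nestin (0.30), and KRT10 (0.44) were higher and NEFL lower (-0.34). The KRT10 value was 0.68 without siNeg replicate 1 and 0.21 without siNeg replicate 2 (adjusted p = 0.381). Of 9 tested genes of the S100 family and its partners, 3 were higher at 6 h: S100A13 (0.32), S100A6 (0.40) and S100A10 (0.29), with S100A6 at -0.01 and S100A10 at 0.04 under quantile normalization, neither called. S100PBP was lower at 24 h (-0.48) and 48 h (-0.49). At 48 h S100A13 was higher (0.41) and S100A11 lower (-0.76, or -0.40 without siMPS1 replicate 2), so S100 genes stood on both sides. The medians of this list were -0.08, -0.16 and 0.05. Of 17 tested genes listed as partners of hyaluronan, CD44 and tenascin, limma called 0 at 6 h (3 had an unadjusted p under 0.05). It called 3 higher and 1 lower at 24 h, and 4 and 2 at 48 h, with medians of 0.08, 0.03 and 0.01. VCAN, versican, was higher (0.64), RDX, radixin, higher (0.20, or 0.06 and not called with averaged probe sets) and SDC4, syndecan-4, lower (-0.45) at 24 h. At 48 h EGFR (0.53) and ITGB3 (0.90) were higher and PTPRB lower (-0.80), and with probe sets averaged EGFR (0.07) and PTPRB (-0.33) were not called. No role as such a partner is given here for PTPRB.

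Of the genes of other cell types, TUBB3 was higher at 6 h (0.28, or 0.02 and not called with averaged probe sets), and at 48 h NCAM1 was higher (1.0) and GAD1 lower (-0.45, or -0.75 with averaged probe sets) among 8 tested neuronal genes. Among 3 oligodendrocyte genes PDGFRA was lower at 24 h (-0.62, but 0.07 with probe sets averaged), and of 2 epithelial genes CLDN4 was higher at 48 h (0.64), with 0.10 against Control (adjusted p = 0.588). Of 1 endothelial and 4 immune genes limma called 0 at each time, and 0 had an unadjusted p under 0.05. The log2 of the summed signal over the 9 groups ran from 10.60 to 11.19 for the neuronal list, 8.40 to 9.21 for the oligodendrocyte list, 4.98 to 5.88 for the endothelial list, 6.62 to 7.29 for the immune list and 6.32 to 8.09 for the epithelial list. The part of these genes in the results above was not tested. Of the list genes named, GJA1 alone of 13 at 6 h kept its call without any 1 array, and the other 12 lost it with adjusted p of 0.0502 to 0.342. At 24 h 13 of 27 kept it, and CLU, GJA1, ID3, KRT18, KRT8, LMNB2, PDGFRA, PLEC, PTPRZ1, RDX, S100PBP, SNAI2, SOX4 and TGFBI did not (0.0513 to 0.243). At 48 h 23 of 30 kept it, and GAD1, GJA1, ITGA6, ITGB3, KRT10, LMNB2 and S100PBP did not (0.0504 to 0.381).

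Several of the list genes named above were called against siNeg and not against Control. At 6 h these were TAGLN2 (0.16 against Control), ITGA6 (-0.32), KRT18 (0.10), S100A13 (0.20), S100A10 (0.17) and TUBB3 (0.15). At 24 h they were GJA1 (-0.05), FBN1 (0.24), ID3 (-0.13), LMNB2 (-0.17), KRT18 (0.10), S100PBP (-0.27), CLU (0.20) and SNAI2 (0.20). At 48 h they were CEBPB, PLAU, EMP1, NOTCH2 and CLDN4, given above, and SYNM (0.17), KRT10 (0.11), ITGB3 (0.27), GAD1 (-0.15) and PTPRZ1 (0.28), while LMNB2 was higher than Control (0.40, adjusted p = 0.0125). With no variance trend the 6 h calls of these genes ended except those of GJA1 and LMNA, and so did those of CLU, GJA1, ID3, KRT8, KRT18, LMNB2, PLEC, RDX and TGFBI at 24 h and GJA1, ITGA6, KRT10 and LMNB2 at 48 h.

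For the 6 tested markers whose group means spanned over 0.5, the 3 genes with the most similar pattern were found by Pearson's r over the 18 arrays, which share times and treatments, as a description. TNC was most like ABCC3 (r = 0.986), SPARC (0.979) and COL5A1 (0.978), and SOX9 like ENO2 (0.979), FOXM1 (0.971) and DVL2 (0.962). NES was most like LGALS3BP (0.961), PCYOX1L (0.939) and FSTL3 (0.938). S100A2 was most like CLU (0.9), SLC35D1 (0.88) and S100A13 (0.872). GFAP was most like LHX2 (0.904), IL4R (0.897) and AMOTL2 (0.857), and S100A4 like UTP25 (0.877), MINAR1 (0.861) and CELF1 (0.86).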

How the data were processed

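Affymetrix human expression arrays of U251 cells were analysed from the authors' deposited table of log2 values, made with MAS5 per the submitters' processing notes; the sources used here give neither version nor scaling. Raised to the power of 2, each array's values had a trimmed mean of 100.122 to 100.134 (trim of 2% at each end), so signals were taken as log2 and scaled per array. Here 3 (the 20th percentile) was added to the linear signals, log2 was taken, and non-control probe sets whose mean lay in the lowest 40% were dropped. Each gene was read from its brightest probe set by mean. Of 22277 probe sets, 19064 named 1 gene, 1043 several and 2108 none; 19052 matched RefSeq. limma 3.58.1 in R 4.3.3 fitted 9 group means with an intensity trend (9 residual degrees of freedom), with Benjamini-Hochberg adjustment. The fit was also tried on simulated data, whose outcome is not given here and supports nothing about these arrays. The precision is limited by 2 arrays per group. Named were all 10 markers, the 3 list genes with the smallest p per list and time, and the 3 most alike genes. The members and lists were chosen with earlier results of these data known. Alternatives were the pseudocount, filter, scaling, probe set choice, variance trend, replicate block, groups fitted and each array left out. Replicate numbers are not said to pair the arrays. Over 36 pairs of groups, deviations over all genes correlated from -0.14 to 0.10, which cannot settle whether some arrays were paired.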

Additional observations from a re-analysis of the deposited data

Results flagged for a closer look

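For 5 markers the difference between siMPS1 and siNeg changed between time points by the test of that change itself (limma, adjusted over 7828 genes). S100A4 changed by 0.89 ± 0.25 (SE, adjusted p = 0.0192) from 24 to 48 h and by 0.81 ± 0.25 (adjusted p = 0.0257) from 6 to 48 h, from below siNeg to above it. S100A2 changed by 0.40 ± 0.09 (adjusted p = 0.00473) and 0.44 ± 0.09 (adjusted p = 0.00227), and TNC by 0.31 ± 0.09 (adjusted p = 0.0228) from 6 to 48 h. NES changed by -0.35 ± 0.12 (adjusted p = 0.0487) from 24 to 48 h and -0.60 ± 0.12 (adjusted p = 0.00147) from 6 to 48 h. VIM changed by -0.51 ± 0.13 (adjusted p = 0.0121) from 6 to 48 h. Both siMPS1 and siNeg enter each change. At 6, 24 and 48 h, siMPS1 differed from Control by 0.28, 0.30 and 0.34 for S100A2, and siNeg by 0.02, 0.00 and -0.36. For S100A4 these were 0.00, -0.11 and 0.28 (siMPS1) and 0.27, 0.25 and -0.26 (siNeg). For NES they were 0.21, -0.42 and 0.23, and 0.02, -0.36 and 0.64. TNC gave 0.19, 0.27 and 0.40, and 0.19, -0.05 and 0.09. VIM gave 0.30, 0.07 and 0.03, and -0.06, -0.02 and 0.18. Without 1 array, the calls of S100A2 in both spans and of NES from 6 to 48 h were kept. The S100A4 change from 24 to 48 h ended without siNeg 24 h replicate 1 (0.80, adjusted p = 0.0776), siNeg 48 h replicate 2 (0.65, adjusted p = 0.0928), siMPS1 24 h replicate 1 (0.84, adjusted p = 0.054) or siMPS1 48 h replicate 2 (0.84, adjusted p = 0.0612). From 6 to 48 h the S100A4 change ended without siNeg 48 h replicate 2 (0.57, adjusted p = 0.116), siNeg 6 h replicate 1 (0.80, adjusted p = 0.0684) or 2 (0.82, adjusted p = 0.0615), siMPS1 48 h replicate 2 (0.76, adjusted p = 0.0727) or siMPS1 6 h replicate 2 (0.50, adjusted p = 0.144). That of TNC ended without siNeg 48 h replicate 2 (0.24, adjusted p = 0.0903), siNeg 6 h replicate 1 (0.25, adjusted p = 0.108), siMPS1 48 h replicate 2 (0.28, adjusted p = 0.068) or siMPS1 6 h replicate 1 (0.29, adjusted p = 0.0608). That of VIM ended without siNeg 48 h replicate 1 (-0.38, adjusted p = 0.0733), siMPS1 48 h replicate 1 (-0.43, adjusted p = 0.0614) or siMPS1 6 h replicate 2 (-0.45, adjusted p = 0.0569). The NES change from 24 to 48 h ended without siNeg 48 h replicate 1 (-0.24, adjusted p = 0.208) and without any 1 of 12 other arrays. Quantile normalization gave -0.14 for VIM (adjusted p = 0.0595), 0.47 for TNC and, for NES from 24 to 48 h, an adjusted p of 0.0631, and averaged probe sets gave 0.50 for TNC. With no variance trend the calls of VIM (adjusted p = 0.0537), TNC (adjusted p = 0.0685), S100A4 in both spans (adjusted p = 0.0543 and 0.0619) and NES from 24 to 48 h (adjusted p = 0.11) ended. With the compared groups alone those of TNC (adjusted p = 0.0511), S100A4 from 6 to 48 h (adjusted p = 0.0643) and NES from 24 to 48 h (adjusted p = 0.0845) ended, and the NES call also ended with no filter (adjusted p = 0.0751).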

How the results depend on the processing

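Counts of markers called are given here. The share of all genes called under each setting is not set beside them, so a change in a count is not read as a result about the markers. Of 2 between siMPS1 and siNeg at 6 h, quantile normalization and no filter left 1 and no variance trend 0 (range without 1 array 0 to 2). At 24 h, averaged probe sets left 1 of 2 (1 to 2), and the 4 at 48 h ranged from 3 to 4. The 1 between siNeg and Control at 6 h became 0 with quantile normalization, median centring, no filter and no trend (0 to 1), and that at 24 h became 0 with median centring, no filter and no trend (0 to 1); the 3 at 48 h stayed 3. Of 2 between siMPS1 and Control at 6 h, quantile normalization, no filter and no trend left 1 and median centring 0, while averaged probe sets and a fit of the compared groups gave 5 and a fit without the 48 h arrays, added after seeing the data, 4 (0 to 3). The 3 at 24 h ranged from 1 to 3 and the 4 at 48 h from 3 to 4. In Control the 5 from 6 to 24 h ranged from 4 to 6 and the 3 from 24 to 48 h from 1 to 3. For the change of the difference from 6 to 24 h, quantile normalization, median centring, the 60% filter and the fit without 48 h gave 1 instead of 0 (0 to 1). From 24 to 48 h no trend left 1 of 3 (1 to 3), and from 6 to 48 h no trend left 2 and the compared groups 3 of 5 (3 to 5). Directions turned for CD44 between siMPS1 and siNeg at 6 h with quantile normalization (-0.21), for CD44 with averaged probe sets between siMPS1 and Control at 24 h (-0.20) and in Control from 24 to 48 h (0.20), for S100A6 at 6 h with quantile normalization (-0.01) and for PDGFRA at 24 h with averaged probe sets (0.07). Median centring moved the median of all genes from 0.04 to -0.16 between siMPS1 and Control and from 0.02 to -0.13 between siNeg and Control at 6 h, in Control from 0.12 to -0.04 (6 to 24 h) and from -0.05 to 0.09 (24 to 48 h), and the siMPS1 and siNeg medians by at most 0.05. The cause of these changes was not tested. With the replicate number as a block, 6 markers were called in Control from 6 to 24 h (CD44 added, adjusted p = 0.0348) and 2 for the change from 24 to 48 h (NES lost, adjusted p = 0.0508), and the other counts were the same. Arrays limit precision by their number, and GFAP, CHI3L1 and S100B by weak signal.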
